A study of Mus musculus with 12 samples.

Results

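Gene expression in 10T1/2 cells on collagen that held ACLP, cultured with an inhibitor of the ALK5 kinase, was compared with expression on collagen alone. 10T1/2 is an established mouse mesenchymal cell line, and the sample records give its genotype as WT. The treated group, named col1-ACLP+SB, received type I collagen polymerized with 30 nM recombinant ACLP (aortic carboxypeptidase-like protein, a secreted matrix protein that binds fibrillar collagen and is encoded by Aebp1) and the ALK5 inhibitor SB431542, added when the cells were seeded. The control group, named col1, received type I collagen without ACLP and without inhibitor. In both groups the cells were starved of serum, held in suspension for 1 h and then kept for 18 h on 12 kPa hydrogels coated at 0.05 mg/mL collagen. The groups had 4 libraries each, 8 of the 12 libraries of the series, and the 4 libraries of the group with ACLP and no inhibitor (col1-ACLP) were left out of this comparison. No group received SB431542 on collagen alone, so the effect of ACLP and the effect of the inhibitor in itself cannot be told apart here. Of the 56748 genes in the count table, 15899 passed a filter on low counts and were tested, and the other 40849 were not.

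ALK5 is the type I receptor of TGFβ, which phosphorylates SMAD2 and SMAD3 and thereby raises the transcription of matrix genes and of feedback inhibitors such as Pmepa1 and Skil. Mesenchymal cells also sense collagen through integrins, whose adhesions pull on actin and pass force to the coactivators MRTF and YAP. Both routes are known to raise collagens, the crosslinking enzyme lysyl oxidase and smooth muscle actin, while genes of resting progenitors and of fat cell formation fall as fibroblasts become active. SB431542 blocks the kinase of ALK5 and of the related receptors ALK4 and ALK7. The comparison asks how expression on ACLP-bearing collagen with this inhibitor differs from that on collagen alone without it.

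Totals ran from 32264826 to 42543707 counts per library on col1 and from 29995224 to 52201922 on col1-ACLP+SB. Levels are given in CPM, counts scaled to library size with TMM factors, as the mean and SD of 4 libraries. Markers of fibroblasts summed to 50451 to 53625 CPM on col1 and 58961 to 65453 CPM on col1-ACLP+SB, with Fap at 0 in every library. Those of endothelial, leukocyte, epithelial, skeletal muscle, adipocyte and neural cells summed to 90.3 CPM or less per list in any library, and Cldn5, Cd3e, Adgre1, Epcam, Krt19, Myod1, Myog, Myf5, Ckm, Lep and Sox10 were at 0 in all 8 libraries. The summed skeletal muscle markers were 2.03 to 3.81 CPM on col1 and 4.24 to 7.57 CPM on col1-ACLP+SB, and the summed neural markers 11.6 to 15.9 and 16.1 to 17.8 CPM. Tnni1, a slow muscle troponin, was the one of these 2 lists' genes called higher, at a log2 fold change of 0.81, and the part of such transcripts in the results below was not tested. In bulk RNA, fewer cells of a type and less RNA per cell cannot be told apart.

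Among the 8 libraries, a pair stood apart from their groups. The first principal component held 26.8% of the variance and placed col1 replicate 2 at a score of 80.1, against -4.88 to -1.66 for the other col1 libraries and -21.3 to -14.0 for col1-ACLP+SB. On the second component (17.8%), col1-ACLP+SB replicate 2 lay at 54.3, while the other libraries of its group lay at -0.80 to 7.23 and the other col1 libraries at -27.3 to -22.0. In col1 replicate 2, 415 genes were at least 1 log2 unit below all the other 7 libraries, against 167 in col1-ACLP+SB replicate 2 and 65 to 122 in the remaining libraries. Counts of called genes are therefore also given without both libraries.

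**Figure D1:**
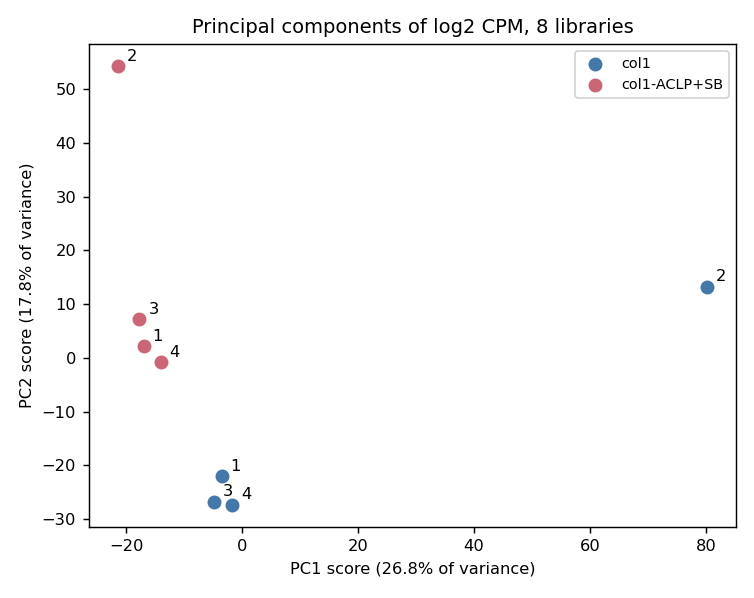
Scores of the 8 libraries on the first and second principal components of log2 CPM (horizontal and vertical axes, unitless), numbered by replicate. Replicate 2 of col1 lies alone at 80.1 on the first component and replicate 2 of col1-ACLP+SB alone at 54.3 on the second.

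Genes were called where edgeR's quasi-likelihood test gave an adjusted p under 0.05 (Benjamini-Hochberg over all 15899 genes) and the groups differed by more than 0.58 on the log2 scale. By this rule 176 genes were higher on col1-ACLP+SB (1.11% of genes tested) and 156 lower (0.981%), which is 2.09% in either direction. The median size of the change was 0.81 on the log2 scale among genes called higher and -0.79 among genes called lower, and the median over all tested genes was 0.00. A change beyond 1 on the log2 scale was found in 53 genes called higher and 49 called lower. With no fold threshold, an adjusted p under 0.05 was reached by 637 genes on the higher side (4.01%) and 689 on the lower (4.33%). The groups' libraries did not overlap in 173 of the 176 genes called higher and 146 of the 156 called lower, against 6.52% of all tested genes upward and 6.74% downward, 13.3% in all. Calls were made on these same libraries, so this separation, and that of single called genes below, follows largely from the rule. Log2 fold changes of the 6 called genes nearest the threshold were 0.58 to 0.60 in size in both directions, and those of the 3 nearest genes outside it 0.58 upward and 0.57 to 0.58 downward. Without replicate 2 of both groups, the rule gave 179 genes higher and 163 genes lower, of which 149 and 123 were among those called with all 8 libraries.

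**Figure D2:**
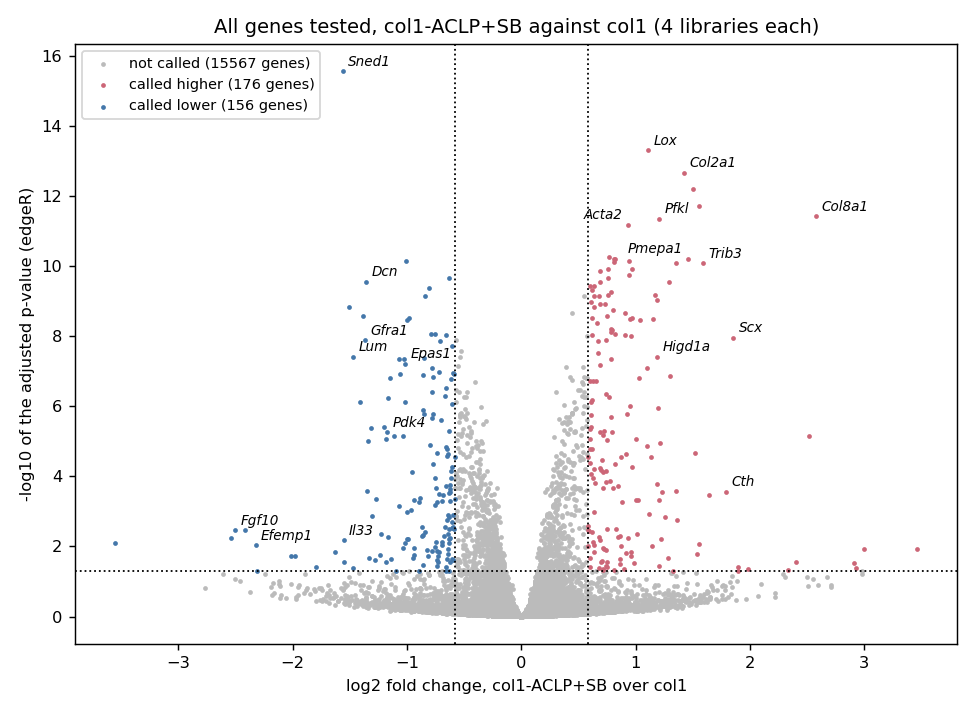
Log2 fold change of col1-ACLP+SB over col1 (horizontal axis) against -log10 of edgeR's adjusted p-value (vertical axis) for the 15899 tested genes, with dotted lines at the thresholds. The 176 genes called higher are red and the 156 called lower blue, with Sned1 at the top on the lower side and Lox at the top on the higher side.

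Matrix genes were called in both directions, with calls among collagens and crosslinking enzymes mostly higher and calls of both directions among proteoglycans and glycoproteins. The gene with the smallest p-value in the comparison was Sned1 (chr1:93163563-93228787 on GRCm39, plus strand, with Mterf4 on the other strand), which encodes a fibronectin type III domain protein of the matrix. Its levels were 1103, 1084, 1192 and 1151 CPM on col1 and 391, 395, 369.6 and 379 CPM on col1-ACLP+SB. All 4 treated libraries lay far below all 4 controls and close to each other. Sned1 fell from 1133 ± 48.4 to 384 ± 11.5 CPM (SD, n = 4), a log2 fold change of -1.56 ± 0.04 (SE) with an adjusted p of 2.7e-16 by edgeR.

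Of 10 fibrillar collagen genes tested, 4 were called higher and none lower, and their median log2 fold change was 0.49. On the adjusted p-value alone, 6 were higher, and Col5a3 was lower at a log2 fold change of -0.24 (edgeR adjusted p = 0.000671). Col2a1 (chr15:97873483-97902576), the fibrillar collagen of cartilage, was at 997, 932, 937 and 815 CPM on col1 and 2367, 2744, 2514 and 2252 CPM on col1-ACLP+SB. Every treated library exceeded every control by more than the spread within either group. Its log2 fold change was 1.42 ± 0.06 (edgeR adjusted p = 2.12e-13). Col11a1 and Col5a1, minor fibrillar chains that set fibril diameter, changed by 0.77 ± 0.04 (adjusted p = 5.31e-11, edgeR) and 0.62 ± 0.04 (adjusted p = 4.78e-10). Col1a1 (chr11:94827050-94843868), the main chain of type I collagen, was at 11959, 12249, 11858 and 12056 CPM on col1 and 17438, 21292, 18540.0 and 16787 CPM on col1-ACLP+SB. The 4 control libraries differed by little, whereas col1-ACLP+SB replicate 2 was the highest of the treated group. Col1a1 rose by 0.62 ± 0.05 on the log2 scale (edgeR adjusted p = 3.04e-09) but lost its call without col1-ACLP+SB replicate 2 (log2 fold change 0.55, adjusted p = 3.3e-11), where its log2 fold change fell under the threshold. Per kilobase of gene length, Col1a1 was at a level of 1833 CPM per kb on col1 against 99.6 for Col2a1, and the order was the same on col1-ACLP+SB (2821 and 267 CPM per kb).

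Among 21 network and other collagens tested, 3 were called higher and 1 lower, with a median log2 fold change of 0.17. Col8a1 (chr16:57444621-57575100), a short-chain collagen of vessel walls and basement membranes, was at 7.04, 6.696, 5.55 and 4.65 CPM on col1 and 34.6, 34.1, 39.8 and 34.5 CPM on col1-ACLP+SB. The treated libraries formed a narrow cluster with replicate 3 above the other 3, well clear of the controls. Its log2 fold change of 2.58 ± 0.12 (edgeR adjusted p = 3.68e-12) was the largest of any called gene in these lists with a mean of at least 10 CPM in a group. Its partner chain Col8a2 rose by 0.68 ± 0.16 (adjusted p = 0.00534, edgeR), from 7.19 to 11.5 CPM. Col7a1, the collagen of anchoring fibrils, was called at 4.75 to 7.77 CPM (edgeR adjusted p = 0.0437) and lost its call when any 1 of col1 replicates 1 and 4 and col1-ACLP+SB replicates 1, 2 and 3 was left out (log2 fold changes from 0.504 to 0.74, adjusted p from 0.0771 to 0.115). The one called lower was Col18a1, a basement membrane collagen whose fragment endostatin restrains vessel growth, at 146, 178, 166 and 193 CPM on col1 and 93.7, 105, 107 and 92.4 CPM on col1-ACLP+SB (log2 fold change -0.78 ± 0.07, edgeR adjusted p = 8.05e-08). Every treated library was below every control. Col18a1 overlaps Slc19a1 on the other strand, and reads of such pairs may not be separable because the strand setting of the counting is not given in the sources used here.

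Calls among enzymes that modify and crosslink collagen were all higher. Of 24 tested, 4 were called higher and none lower, and 13 were higher and 1 lower on the adjusted p-value alone. The median log2 fold change of the list was 0.23. Lox, lysyl oxidase, which starts the covalent crosslinks between collagen molecules, was at 717, 734, 715 and 679.6 CPM on col1 and 1621, 1486, 1529 and 1494 CPM on col1-ACLP+SB. The groups were separated by a gap larger than the whole range of either. Lox rose from 711 ± 22.7 to 1532 ± 61.6 CPM (SD, n = 4), a log2 fold change of 1.11 ± 0.04 with the smallest adjusted p of the genes called higher (4.8e-14, edgeR). Loxl4, a relative of Lox, rose by 0.97 ± 0.06 (adjusted p = 1.18e-10, edgeR). P4ha1 and P4ha2, subunits of the prolyl hydroxylase that stabilizes the collagen helix, changed by 0.76 ± 0.05 (adjusted p = 2.22e-10) and 0.61 ± 0.07 (adjusted p = 1.76e-06) in the same test. P4ha2 lost its call without col1-ACLP+SB replicate 2 (log2 fold change 0.57, adjusted p = 9.42e-06). P4hb, the shared subunit of the enzyme, was higher by 0.29 (edgeR adjusted p = 7.41e-06), short of the fold threshold. The one member lower on the adjusted p-value was Loxl1, at -0.37 (edgeR adjusted p = 8.16e-05).

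Of 34 matrix glycoproteins and matricellular proteins, 7 were called higher and 4 lower, with a median of 0.10 on the log2 scale that was 0.07 without col1 replicate 2 and 0.04 without col1-ACLP+SB replicate 2. Ccn2 (connective tissue growth factor) was at 44.8, 50.03, 42.9 and 55.3 CPM on col1 and 106, 119.6, 114 and 89.1 CPM on col1-ACLP+SB, and Ccn4 at 36.1, 43.1, 33.9 and 37.6 CPM on col1 and 81.8, 88.1, 97.5 and 76.4 CPM on col1-ACLP+SB. In both genes the lowest treated library lay well above the highest control. The log2 fold changes were 1.15 ± 0.09 for Ccn2 (edgeR adjusted p = 3.11e-09) and 1.19 ± 0.08 for Ccn4 (adjusted p = 9e-10). Thbs1, thrombospondin 1, which can release latent TGFβ, rose by 0.81 ± 0.05 (adjusted p = 6.25e-11, edgeR) from 1032 to 1809 CPM. Hapln1, a link protein that joins hyaluronan to proteoglycans, rose by 1.64 ± 0.29 at a low level (1.54 to 4.803 CPM, adjusted p = 0.000343). Postn, Eln and Fbln5 were the others called higher, chosen for naming after their values were seen, with log2 fold changes of 0.74, 0.74 and 0.601. Beside Sned1, the genes called lower were Efemp1, Ccn3 and Spp1, at -2.32, -0.77 and -0.58. Efemp1, a fibulin of elastic tissue, was at 1.03, 1.53, 1.53 and 1.62 CPM on col1 and 0.459, 0.304, 0.117 and 0.267 CPM on col1-ACLP+SB, so that its fold rests on levels near 1 CPM or less.

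Small leucine-rich proteoglycans moved in opposite directions. Decorin (Dcn), which limits fibril width and binds TGFβ, was at 69.5, 89.9, 85.97 and 92.3 CPM on col1 and 37.4, 32.4, 30.5 and 31.4 CPM on col1-ACLP+SB. Lumican (Lum), which binds the same fibrils, was at 17.8, 22.6, 22.3 and 21.2 CPM on col1 and 8.51, 6.19, 8.27 and 7.200 CPM on col1-ACLP+SB. Fibromodulin (Fmod), which also binds type I collagen, was at 30.04, 32.1, 32.1 and 37.6 CPM on col1 and 63.7, 71.6, 71.3 and 63.9 CPM on col1-ACLP+SB. No library of one group reached into the range of the other in any of these genes, with Dcn and Lum lower and Fmod higher on col1-ACLP+SB. The log2 fold changes were -1.36 ± 0.09 for Dcn, -1.47 ± 0.13 for Lum and 1.04 ± 0.08 for Fmod, with edgeR adjusted p-values of 2.75e-10, 3.85e-08 and 3.36e-09. Prelp, another member of the family, and Gpc1, a cell surface heparan sulfate proteoglycan, rose by 0.64 ± 0.04 (adjusted p = 7.12e-10) and 0.68 ± 0.04 (adjusted p = 2.81e-10) by edgeR. Over 21 proteoglycan genes the count was 3 higher and 2 lower, with a median of 0.06.

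Among 24 matrix proteases and their inhibitors none was called higher and 2 were called lower. These were the plasminogen activators Plat, from 8.86 ± 1.46 to 4.83 ± 0.9803 CPM (-0.87 ± 0.18 on the log2 scale, edgeR adjusted p = 0.00285), and Plau, from 17.3 ± 3.05 to 10.9 ± 1.56 CPM (-0.67 ± 0.14, adjusted p = 0.00273). The range of Plau overlapped between the groups. Its call was lost without replicate 2 of both groups, where its log2 fold change of -0.54 fell inside the threshold (edgeR adjusted p = 0.0275). Mmp14, a membrane collagenase, was lower at -0.36 ± 0.05 (edgeR adjusted p = 9.58e-06) and Timp3, a protease inhibitor, higher by 0.53 ± 0.05 (adjusted p = 2.07e-07), both inside the fold threshold. In all, without replicate 2 of both groups, 3 fibrillar collagens, 4 crosslinking enzymes, 6 glycoproteins and 3 proteoglycans were called higher.

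**Figure D3:**
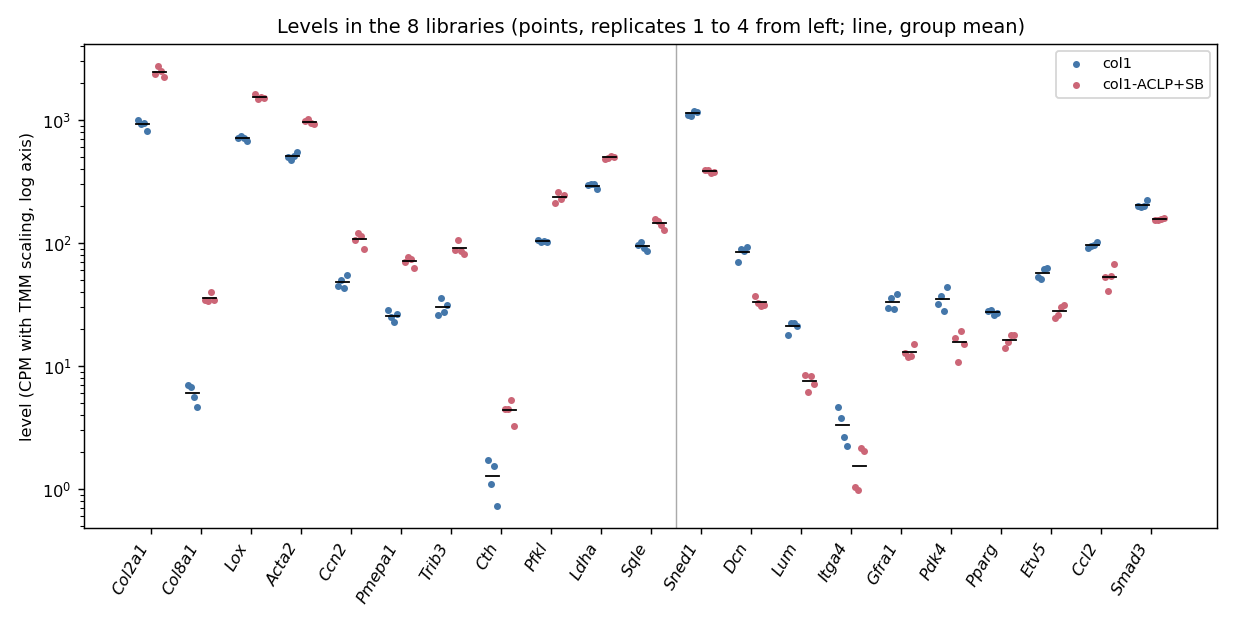
Level of 21 genes (vertical axis, CPM with TMM scaling, log axis) in the 8 libraries, with col1 in blue, col1-ACLP+SB in red and the group mean as a line. Left of the grey line are genes that were called higher and right of it genes that were lower, of which Smad3 stayed inside the fold threshold. In none of them do the groups overlap.

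Integrin subunits, the receptors that grip collagen and fibronectin, gave 1 call. Of 20 tested, none was called higher and 1 lower, against 2.09% of all tested genes called, and the median log2 fold change was -0.07. The subunit called lower was Itga4, which pairs with β1 to bind fibronectin and VCAM1, at 4.66, 3.75, 2.67 and 2.23 CPM on col1 and 1.03, 0.9803, 2.14 and 2.03 CPM on col1-ACLP+SB (log2 fold change -1.096 ± 0.34, edgeR adjusted p = 0.0491). Its lowest controls lay just above its highest treated libraries, and Itga4 lost its call when any 1 of col1 replicates 1, 2 and 3 and col1-ACLP+SB replicates 1 and 2 was left out (log2 fold changes from -1.19 to -0.89, adjusted p from 0.0596 to 0.2), and also by limma-voom. Itgb3 and Itgb5, which pair with αv, were higher by 0.35 ± 0.07 (adjusted p = 0.00127) and 0.32 ± 0.05 (adjusted p = 7.47e-05), below the fold threshold by edgeR. Itga11, a collagen-binding subunit, was at 0.527, 1.39, 1.23 and 0.423 CPM on col1 and 2.18, 1.08, 1.77 and 2.17 CPM on col1-ACLP+SB (edgeR adjusted p = 0.231), and its groups overlapped.

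Focal adhesion and caveolar genes gave 1 call among 32 tested, against 2.09% of all tested genes called. Cav1, the scaffold of caveolae, was at 27.4, 23.5, 28.4 and 30.1 CPM on col1 and 49.5, 45.8, 45.1 and 40.3 CPM on col1-ACLP+SB and rose by 0.72 ± 0.09 on the log2 scale (edgeR adjusted p = 4.89e-06). Its treated libraries all exceeded its controls. Cavin1, which coats the same membrane pits, was lower at -0.28 ± 0.04 (adjusted p = 0.000151, edgeR). On the adjusted p-value alone, 4 genes of this list were higher and 5 lower, the lower ones including vinculin (Vcl, -0.25), zyxin (Zyx, -0.17) and tensin 1 (Tns1, -0.29).

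None of 42 genes of the actin cytoskeleton and its regulators was called. On the adjusted p-value alone 10 were higher and 1 lower, and the median log2 fold change was 0.06. The actin crosslinkers Actn1 and Actn4 were at 513, 515, 528 and 529 CPM on col1 and 681, 692, 673 and 652 CPM on col1-ACLP+SB and at 607, 611, 628 and 674 CPM on col1 and 800.0, 935, 886 and 839 CPM on col1-ACLP+SB, respectively. In both, every treated library was above every control. They rose by 0.37 ± 0.04 (adjusted p = 9.23e-07) and 0.46 ± 0.05 (adjusted p = 7.69e-07), and Msn (moesin), which ties actin to the membrane, rose by 0.39 ± 0.05 (adjusted p = 2.01e-06) by edgeR. Rhoa and Myh9 (nonmuscle myosin), named after their values were seen, were higher by 0.16 and 0.16.

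Acta2 (chr19:34218490-34232990), smooth muscle α-actin, the usual marker of an activated fibroblast, was at 504, 473, 512 and 544 CPM on col1 and 984, 1015, 951 and 924 CPM on col1-ACLP+SB. The lowest treated library was far above the highest control. Acta2 rose by 0.93 ± 0.05 on the log2 scale (edgeR adjusted p = 6.42e-12). It was 1 of 2 genes called higher among 27 MRTF-SRF targets and contractile genes, whose median was 0.01, and 5 of these were higher and 3 lower on the adjusted p-value alone. The other, the troponin Tnnt2, was at 0.422, 0.268, 0.184 and 0.235 CPM on col1 and 0.659, 0.777, 2.06 and 0.9000 CPM on col1-ACLP+SB (edgeR adjusted p = 0.0439), and lost its call when any 1 of the 8 libraries was left out (log2 fold changes from 1.48 to 2.25, adjusted p from 0.0547 to 0.305), and also by limma-voom. The members lower on the adjusted p-value included Tpm2 (tropomyosin 2) at -0.53 ± 0.06 (adjusted p = 1.76e-06) and Smtn (smoothelin) at -0.32, whereas Tpm1 was higher at 0.22 (edgeR). Among 34 YAP-TEAD regulators and targets, Ccn2 was the one called and the median was -0.03. Amotl2, a feedback inhibitor of YAP, was higher by 0.35 ± 0.05 (edgeR adjusted p = 7.41e-05) and Crim1 lower at -0.45 ± 0.06 (adjusted p = 3.96e-06).

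In the TGFβ pathway, a few direct targets were higher on col1-ACLP+SB than on col1, while the median of the list lay near 0. Of 26 SMADs and TGFβ targets, 4 were called higher and none lower, 5 were higher and 5 lower on the adjusted p-value alone, and the median of 0.03 became 0.09 without col1 replicate 2. Pmepa1 (chr2:173066251-173118326), a feedback inhibitor that keeps SMAD2 and SMAD3 from the receptor, was at 28.6, 25.2, 22.7 and 26.3 CPM on col1 and 70.3, 77.2, 73.4 and 62.6 CPM on col1-ACLP+SB. Skil, which encodes the SMAD corepressor SnoN, was at 15.7, 17.3, 15.5 and 14.4 CPM on col1 and 28.03, 29.2, 27.3 and 24.6 CPM on col1-ACLP+SB. Scx, the tendon transcription factor scleraxis, was at 5.51, 4.29, 4.08 and 4.91 CPM on col1 and 16.8, 17.3, 13.7 and 20.3 CPM on col1-ACLP+SB. In these 3 genes no control library reached the treated range. The log2 fold changes were 1.46 ± 0.08, 0.796 ± 0.099 and 1.85 ± 0.15, with edgeR adjusted p-values of 6.05e-11, 5.49e-06 and 1.1e-08. Scx lies opposite Bop1, which was higher by 0.33 ± 0.07 (adjusted p = 0.00307). Ldlrad4, another inhibitor of SMAD activation, rose by 0.69 ± 0.104 (adjusted p = 6.53e-05, edgeR). Smad3 itself was at 201, 195, 200.1 and 225 CPM on col1 and 153, 155, 156 and 160.1 CPM on col1-ACLP+SB, lower in all 4 treated libraries, with a log2 fold change of -0.397 ± 0.05 (edgeR adjusted p = 1.38e-05).

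Among 24 TGFβ ligands, receptors and latency proteins, 1 was called higher and 1 lower, and the median was -0.04. Over all tested genes 2.09% were called, to be set beside this count and that of the BMP genes below. Inhba, the activin A subunit, whose receptors include ALK4, was at 6.14, 9.24, 7.52 and 5.31 CPM on col1 and 18.3, 15.6, 17.1 and 14.1 CPM on col1-ACLP+SB. Lrrc32 (GARP), which holds latent TGFβ at the cell surface, was at 17.00, 12.4, 12.00 and 11.4 CPM on col1 and 5.82, 5.31, 6.09 and 6.000 CPM on col1-ACLP+SB. The groups were apart in both genes, with log2 fold changes of 1.21 ± 0.16 (edgeR adjusted p = 1.08e-05) and -1.18 ± 0.15 (adjusted p = 8.67e-06). Fst (follistatin), which traps activin, was higher by 0.41 ± 0.06 (adjusted p = 3.26e-05, edgeR). Of 17 BMP genes, Nbl1 (DAN), a secreted BMP antagonist, was the one called, lower at -0.62 ± 0.06 (edgeR adjusted p = 1.6e-07), and it lost its call without col1 replicate 4 (log2 fold change -0.56, adjusted p = 2.23e-06). Its levels were 139.6, 147, 142 and 165 CPM on col1 and 91.3, 99.8, 96.4 and 99.7 CPM on col1-ACLP+SB.

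Of 29 Wnt and 16 Notch genes tested, 1 in each list was called, where 2.09% of all tested genes were called. At that share, 1 call in so short a list says little. Sfrp2, a Wnt modulator, was lower at -1.23 ± 0.33 (edgeR adjusted p = 0.0176) from 3.28 to 1.38 CPM, and lost its call when either col1 replicate 3 or col1-ACLP+SB replicate 4 was left out (log2 fold changes from -1.19 to -1.06, adjusted p from 0.0562 to 0.0575). The receptors Lrp5 and Fzd8 were higher by 0.57 ± 0.05 (adjusted p = 9.9e-09) and 0.45 ± 0.05 (adjusted p = 1.62e-06), short of the threshold of 0.58. The Notch target Hey2 was at 2.16, 2.49, 1.78 and 2.04 CPM on col1 and 6.79, 4.66, 5.29 and 4.900 CPM on col1-ACLP+SB and rose by 1.35 ± 0.23 on the log2 scale (edgeR adjusted p = 0.00026), with no overlap of the groups. Jag1, a Notch ligand, was higher by 0.56 ± 0.05 (adjusted p = 1.54e-07, edgeR). Hey1 was at 0.237, 0.536, 0.184 and 0.235 CPM on col1 and 1.09, 1.79, 0.7396 and 0.7000 CPM on col1-ACLP+SB (edgeR adjusted p = 0.0702).

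Genes of amino acid supply were called in 1 direction, most often among the enzymes. The integrated stress response lets cells that are short of amino acids or under endoplasmic reticulum stress translate the factor ATF4, which then raises enzymes, transporters and tRNA synthetases for amino acids. Of 23 amino acid and one-carbon enzymes, all of which were tested, 8 were called higher and none lower, 15 were higher and 1 lower on the adjusted p-value alone, and the median log2 fold change was 0.55. Of 21 stress response regulators, 3 were called higher and none lower, 7 were higher on the adjusted p-value alone, and the median of 0.11 became 0.24 without col1 replicate 2 and 0.07 without col1-ACLP+SB replicate 2. Of 20 tRNA synthetases, 12 were higher on the adjusted p-value and 1 was called (median 0.30). Of 19 amino acid transporters, 2 were called higher and none lower, 8 were higher and 2 lower on the adjusted p-value alone, and the median of 0.15 became 0.05 without col1-ACLP+SB replicate 2. Without replicate 2 of both groups, 9 enzymes, 3 regulators, 1 synthetase and 2 transporters were called higher.

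Promoters of Asns, Trib3, Chac1 and Pycr1 are shown because each of these called genes holds the ATF4 element, searched as TGATGNAA on both strands, which is printed in capitals as it reads on the gene's strand (TTNCATCA where it lies on the other strand). Each sequence is RefSeq's on GRCm38.p6, from 250 bases before to 50 bases after the start, at chr6:7693160-7693459 (minus strand) for Asns, chr2:152344011-152344310 (minus strand) for Trib3, chr2:119350992-119351291 (plus strand) for Chac1 and chr11:120643699-120643998 (minus strand) for Pycr1.
Asns: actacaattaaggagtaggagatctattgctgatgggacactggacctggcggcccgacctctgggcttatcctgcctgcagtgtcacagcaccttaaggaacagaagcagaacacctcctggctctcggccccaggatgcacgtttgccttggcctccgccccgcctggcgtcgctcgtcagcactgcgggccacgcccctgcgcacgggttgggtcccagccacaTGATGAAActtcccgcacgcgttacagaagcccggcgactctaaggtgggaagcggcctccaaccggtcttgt
Trib3: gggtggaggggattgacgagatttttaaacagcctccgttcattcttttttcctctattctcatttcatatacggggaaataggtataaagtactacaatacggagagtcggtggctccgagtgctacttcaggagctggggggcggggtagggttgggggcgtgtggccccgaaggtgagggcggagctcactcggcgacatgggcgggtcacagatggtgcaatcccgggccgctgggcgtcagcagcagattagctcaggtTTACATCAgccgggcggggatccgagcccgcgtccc
Chac1: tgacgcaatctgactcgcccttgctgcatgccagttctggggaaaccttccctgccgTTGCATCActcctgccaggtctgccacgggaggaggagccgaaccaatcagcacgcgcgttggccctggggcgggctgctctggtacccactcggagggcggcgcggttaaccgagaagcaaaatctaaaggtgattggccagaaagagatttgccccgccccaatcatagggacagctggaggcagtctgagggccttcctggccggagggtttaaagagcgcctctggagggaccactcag
Pycr1: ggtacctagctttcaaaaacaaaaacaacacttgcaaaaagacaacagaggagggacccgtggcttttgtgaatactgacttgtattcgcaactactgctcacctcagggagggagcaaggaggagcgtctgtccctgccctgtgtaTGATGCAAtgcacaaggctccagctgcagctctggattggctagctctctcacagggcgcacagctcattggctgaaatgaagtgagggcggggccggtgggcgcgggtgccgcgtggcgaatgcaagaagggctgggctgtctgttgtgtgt

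The element began 23 bases before the start in Asns, 103 in Pycr1 and 193 in Chac1, and lay 14 bases after it in Trib3. It was found in 296 of the 10618 tested genes with a listed promoter (2.79%), in 13 of 122 genes called higher (10.7%) and in 6 of 111 genes called lower (5.41%). Among called genes it was present in 3 of 6 amino acid enzymes (Asns, Pycr1 and Got1), in the 3 stress response regulators (Trib3, Chac1 and Vldlr) and in the transporter Slc1a4. Among tested members with a promoter it was present in 3 of 18 enzymes (16.7%), 6 of 20 regulators (30.0%) and 3 of 13 transporters (23.1%). The lists hold known ATF4 targets, so these shares are a property of the lists and not of their change here. A match describes letters in this window and is not a measured binding site.

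Trib3 (chr2:152179342-152185952), a pseudokinase that dampens the stress response, was at 25.8, 35.6, 27.7 and 31.2 CPM on col1 and 88.2, 106, 85.9 and 81.7 CPM on col1-ACLP+SB. Chac1, which breaks down glutathione, was at 17.4, 22.3, 13.9 and 20.97 CPM on col1 and 41.6, 55.8, 46.6 and 39.9 CPM on col1-ACLP+SB. Each treated library exceeded each control, with Trib3 and Chac1 highest in replicate 2 of both groups. Their log2 fold changes were 1.59 ± 0.09 (edgeR adjusted p = 8.24e-11) and 1.298 ± 0.12 (adjusted p = 1.37e-07). Vldlr, a lipoprotein receptor that ATF4 also raises, changed by 0.79 ± 0.06 (adjusted p = 6.49e-09). Atf4 itself was higher by 0.33 and Atf5 by 0.57 on the log2 scale, with edgeR adjusted p-values of 8.83e-05 and 5.44e-07.

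Among the enzymes, Asns, which makes asparagine, was at 65.7, 59.3, 62.3 and 66.96 CPM on col1 and 123, 119, 128 and 119 CPM on col1-ACLP+SB. Mthfd2, of mitochondrial one-carbon metabolism, was at 24.5, 24.4, 22.7 and 23.3 CPM on col1 and 50.1, 43.6, 46.6 and 44.6 CPM on col1-ACLP+SB. Pycr1, which makes proline, an abundant residue of collagen, was at 44.8, 40.9, 39.1 and 42.6 CPM on col1 and 73.3, 85.4, 83.8 and 71.7 CPM on col1-ACLP+SB. The treated and control ranges were far apart in each. The log2 fold changes were 0.94 ± 0.06, 0.96 ± 0.08 and 0.91 ± 0.07, with edgeR adjusted p-values of 1.73e-10, 9.9e-09 and 9.19e-09. Bcat1, which transaminates branched-chain amino acids, rose by 0.95 ± 0.104 (adjusted p = 9.6e-07). Cth, which makes cysteine, rose by 1.79 ± 0.305 at a low level, with 1.71, 1.098, 1.53 and 0.728 CPM on col1 and 4.47, 4.496, 5.27 and 3.23 CPM on col1-ACLP+SB (edgeR adjusted p = 0.000276). The serine synthesis enzymes Phgdh and Psph, named after their values were seen, changed by 0.58 and 0.72. The one enzyme lower on the adjusted p-value was Glul, glutamine synthetase, at -0.41 (edgeR adjusted p = 0.0144).

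Transporters and synthetases showed the same direction in their called members. Slc1a4, which carries alanine, serine and cysteine, rose by 1.03 ± 0.100 (edgeR adjusted p = 1.52e-07) from 25.9 ± 2.46 to 53.02 ± 8.56 CPM. Slc7a5, the light chain of the large neutral amino acid transporter, rose by 0.78 ± 0.05 (adjusted p = 5.39e-10) from 119.5 ± 3.78 to 205 ± 10.3 CPM, and Slc7a1, which carries arginine and lysine, was higher by 0.55 ± 0.06 (adjusted p = 1e-06), inside the fold threshold. Aars, the alanine synthetase, rose by 0.66 ± 0.05 (adjusted p = 4.25e-09), and Gars and Iars, for glycine and isoleucine, were higher by 0.498 ± 0.05 (adjusted p = 3.46e-07) and 0.55 ± 0.05 (adjusted p = 1.43e-07) by edgeR.

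Called glycolytic genes covered the steps from hexokinase to lactate dehydrogenase, with the exception of glucose phosphate isomerase (Gpi1, higher by 0.37 on the log2 scale). Of 25 glycolytic and glucose transport genes tested, 10 were called higher and none lower, 13 were higher and 1 lower on the adjusted p-value alone, and the median was 0.38. Of 24 targets of the hypoxia factor HIF outside glycolysis, 9 were called higher and 2 lower (median 0.45). This list also holds the HIF subunit genes Hif1a and Epas1, and its called genes include P4ha1 and P4ha2, already counted among the collagen enzymes. HIF is stable when oxygen is scarce or prolyl hydroxylation of its α subunit is slowed, and is known to raise glycolytic enzymes, Pdk1 and Bnip3. Without replicate 2 of both groups, 10 glycolytic genes and 10 other HIF targets were called higher.

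The promoters of Ldha and Pgk1 are shown because both enzymes were called higher and both windows hold the core of the HIF site, searched as ACGTG on both strands and printed in capitals, with CACGT where it lies on the other strand and CACGTG where a match on each strand overlaps. They are RefSeq's on GRCm38.p6, at chr7:46845554-46845853 (plus strand) for Ldha, which has 2 promoters listed, and chrX:106186850-106187149 (plus strand) for Pgk1.
Ldha: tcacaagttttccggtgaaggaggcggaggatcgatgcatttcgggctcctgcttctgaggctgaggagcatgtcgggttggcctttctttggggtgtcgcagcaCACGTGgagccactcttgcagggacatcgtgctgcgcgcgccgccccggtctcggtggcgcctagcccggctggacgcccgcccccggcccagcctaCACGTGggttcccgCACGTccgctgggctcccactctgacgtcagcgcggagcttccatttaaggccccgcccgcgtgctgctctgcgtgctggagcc
Pgk1: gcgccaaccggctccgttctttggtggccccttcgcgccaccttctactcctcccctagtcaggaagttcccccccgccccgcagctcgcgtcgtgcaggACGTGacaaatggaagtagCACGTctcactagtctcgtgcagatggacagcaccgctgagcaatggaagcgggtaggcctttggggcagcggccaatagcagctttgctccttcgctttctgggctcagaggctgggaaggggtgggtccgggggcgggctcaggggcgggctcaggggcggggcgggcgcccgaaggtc

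The core occurred 5 times in the Ldha window, counting both strands, and 2 times in that of Pgk1. It was present in 28.8% of all tested genes with a promoter, in 27.9% of genes called higher and in 25.2% of genes called lower. Among tested glycolytic genes with a promoter 15 of 24 had it (62.5%), and 7 of the 10 called higher. Among other tested HIF targets with a promoter 14 of 18 had it (77.8%), and 7 of the 8 called higher. The list was written from known HIF targets, so this share is a property of the list and not of its change here.

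Ldha (chr7:46490899-46505051), which turns pyruvate into lactate, was at 294, 304, 299.9 and 272 CPM on col1 and 486, 487, 508 and 501 CPM on col1-ACLP+SB. Pgk1, which makes ATP from 1,3-bisphosphoglycerate, was at 232, 224, 220.1 and 219.9 CPM on col1 and 386, 414, 377 and 408 CPM on col1-ACLP+SB. Pfkl, a subunit of the committed step phosphofructokinase, was at 105, 102, 103 and 102 CPM on col1 and 213, 261, 228 and 247 CPM on col1-ACLP+SB. Each gene had tight control libraries and a treated range wholly above them. Their log2 fold changes were 0.76 ± 0.05, 0.82 ± 0.05 and 1.203 ± 0.06, with edgeR adjusted p-values of 1.18e-10, 6.25e-11 and 4.33e-12. Hk2, hexokinase 2, rose by 0.96 ± 0.14 (adjusted p = 5.21e-05) from 7.74 ± 1.39 to 15.1 ± 1.07 CPM. Eno1, Pkm, Tpi1, Pgam1 and Aldoa were also called, at log2 fold changes of 0.69, 0.64, 0.64, 0.62 and 0.61. Gapdh was called at 0.91 ± 0.13 (edgeR adjusted p = 2.28e-05), but from only 20.4 ± 4.87 to 38.3 ± 3.66 CPM, a low level for this gene. Gapdh has many near-identical pseudogenes and its counts are uncertain where reads map to several places. Ldhb, the lactate dehydrogenase of oxidative tissue, was lower at -0.45 (edgeR adjusted p = 0.0157).

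Of the HIF targets outside glycolysis, Higd1a, a mitochondrial protein, was at 15.4, 16.4, 12.6 and 12.99 CPM on col1 and 36.1, 32.7, 29.8 and 32.5 CPM on col1-ACLP+SB. Pdk1, the kinase that shuts pyruvate out of mitochondria, was at 40.6, 37.1, 43.2 and 42.4 CPM on col1 and 78.4, 86.2, 71.6 and 80.5 CPM on col1-ACLP+SB. Treated libraries lay above controls throughout. Higd1a rose by 1.19 ± 0.11 (edgeR adjusted p = 3.77e-08), Pdk1 by 0.96 ± 0.07 (adjusted p = 3.3e-09), Ak4, an adenylate kinase of mitochondria, by 1.102 ± 0.15 (adjusted p = 1.37e-05) and Bnip3, a mitophagy receptor, by 0.92 ± 0.105 (adjusted p = 1.6e-06). In the other direction, Epas1 (HIF-2α) was at 32.9, 28.3, 33.2 and 32.01 CPM on col1 and 16.2, 15.99, 15.01 and 15.3 CPM on col1-ACLP+SB, a fall of 1.02 on the log2 scale (edgeR adjusted p = 6.06e-08), and Car9, a carbonic anhydrase that is a standard hypoxia marker, was lower at -0.63. Hif1a was higher by 0.301 and Vegfa by 0.46, with edgeR adjusted p-values of 0.000473 and 4.24e-05.

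Calls among genes of cholesterol and fatty acid synthesis were all higher. Of 32 tested, 6 were called higher and none lower, 23 were higher and none lower on the adjusted p-value alone, 30 had an estimate above 0, and the median was 0.35. These genes are raised by SREBP factors when sterols run low. Sqle, squalene epoxidase, was at 96.5, 102, 91.8 and 86.5 CPM on col1 and 158, 149.7, 140.2 and 128 CPM on col1-ACLP+SB. Idi1, the isopentenyl diphosphate isomerase of the mevalonate pathway, was at 21.1, 25.4, 20.7 and 20.6 CPM on col1 and 35.9, 32.7, 29.5 and 37.4 CPM on col1-ACLP+SB. No control library reached the treated range in either. Idi1, Sqle and Cyp51, a demethylase of lanosterol, rose by 0.62 ± 0.098, 0.61 ± 0.07 and 0.601 ± 0.08, with edgeR adjusted p-values of 0.000114, 7.5e-07 and 8.54e-06. Fdft1, squalene synthase, was called at 0.58. These 4 lie near the fold threshold. Idi1 lost its call without col1-ACLP+SB replicate 4 (log2 fold change 0.57, adjusted p = 0.000992). Sqle lost its call without either col1 replicate 4 or col1-ACLP+SB replicate 1, and Cyp51 without either of col1 replicates 3 and 4, where their log2 fold changes fell under the threshold. Without col1 replicate 4 the count fell from 6 to 3.

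None of 28 endoplasmic reticulum chaperones and unfolded protein response genes was called, while 12 were higher and none lower on the adjusted p-value alone, with a median of 0.18. The chaperones Hspa5 (BiP) and Hsp90b1 were higher by 0.28 ± 0.04 (edgeR adjusted p = 6.06e-05) and 0.28 ± 0.04 (adjusted p = 9.76e-05).

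Cell cycle genes mostly had estimates above 0, and 2 genes were called in each list, where 1.11% of all tested genes were called higher. All 56 G2/M and mitosis genes tested had an estimate above 0, with a median of 0.32, yet 2 were called and 5 passed the adjusted p-value alone. Of 50 G1/S and DNA replication genes, 42 had an estimate above 0 (median 0.22) and 2 were called. Mki67, the common proliferation marker, was at 32.8, 31.2, 35.3 and 31.9 CPM on col1 and 41.9, 46.6, 48.1 and 42.9 CPM on col1-ACLP+SB, higher in every treated library, with a log2 fold change of 0.45 ± 0.08 (edgeR adjusted p = 0.00029). The called genes had low levels. Uhrf1, which guides maintenance DNA methylation, rose by 0.74 ± 0.12 (edgeR adjusted p = 0.000142) from 11.6 to 19.4 CPM, and the kinase Aurkb by 0.74 ± 0.22 (adjusted p = 0.0351) from 4.15 to 6.95 CPM. Aurkb lost its call when any 1 of col1 replicates 1, 3 and 4 and col1-ACLP+SB replicates 1, 2 and 3 was left out (log2 fold changes from 0.63 to 0.78, adjusted p from 0.055 to 0.119). Cdc45 of the replication helicase was called at 3.41 to 5.72 CPM and lost its call when any 1 of col1 replicates 2 and 3 and col1-ACLP+SB replicates 1, 3 and 4 was left out (log2 fold changes from 0.61 to 0.72, adjusted p from 0.0953 to 0.107). Sgo1, which protects cohesin, was called at 2.05 to 3.72 CPM and lost its call when any 1 of col1 replicates 1, 3 and 4 and col1-ACLP+SB replicates 1, 2 and 3 was left out (log2 fold changes from 0.82 to 0.89, adjusted p from 0.0563 to 0.0866). Leaving out 1 library moved the G2/M count between 0 and 4. Among CDK inhibitors and p53 targets none of 19 was called (median -0.04).

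**Figure D4:**
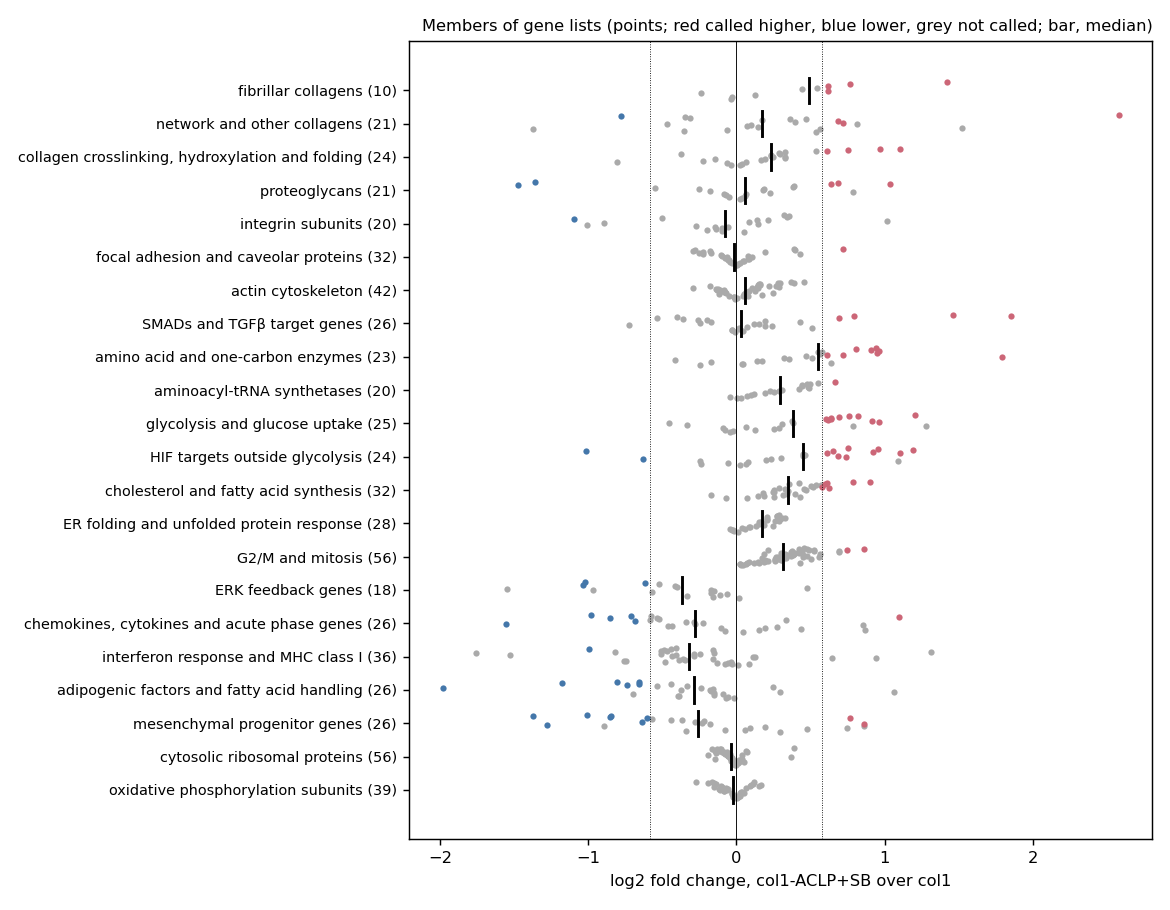
Log2 fold change of col1-ACLP+SB over col1 (horizontal axis) for every tested member of 22 gene lists (vertical axis, number tested in brackets), with the list median as a bar and dotted lines at the fold threshold of 0.58. Amino acid enzymes (median 0.55), fibrillar collagens (0.49) and HIF targets (0.45) lie to the right, ERK feedback genes (-0.36) and interferon genes (-0.32) to the left, and ribosomal and oxidative phosphorylation genes on 0.

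Of genes listed as marks of resting mesenchymal progenitors, more were called lower than higher. The list was written with results of this series known, so its counts are descriptions. The paper names Gfra1, Akap12 and Pdgfra as suppressed on col1-ACLP in this series. Of 26 tested, 7 were called lower and 2 higher, and 14 were lower and 2 higher on the adjusted p-value alone, with a median of -0.26. Gfra1, a receptor for the growth factor GDNF, was at 29.7, 36.02, 28.9 and 38.4 CPM on col1 and 12.7, 11.8, 12.1 and 15.1 CPM on col1-ACLP+SB. Akap12, a scaffold of protein kinase A, was at 287, 279, 266 and 304 CPM on col1 and 127, 139, 147 and 153 CPM on col1-ACLP+SB. Pi16, a marker of reservoir fibroblasts, was at 66.1, 82.04, 69.1 and 79.9 CPM on col1 and 41.4, 43.2, 39.4 and 40.9 CPM on col1-ACLP+SB. In all 3, each treated library lay below each control. They fell by 1.37, 1.01 and 0.85 on the log2 scale, with edgeR adjusted p-values of 1.27e-08, 7.19e-11 and 4.23e-08. Pdgfra, the progenitor receptor for PDGF, was at 402, 417, 419 and 459 CPM on col1 and 269, 253, 300.1 and 297 CPM on col1-ACLP+SB, a log2 fold change of -0.599 ± 0.06 (edgeR adjusted p = 1.09e-07), and Pdgfrb was at -0.17 ± 0.05 (adjusted p = 0.0221). Dpt, a matrix protein, was lower from 2.89 to 1.17 CPM and lost its call when any 1 of col1 replicates 2 and 3 and col1-ACLP+SB replicates 1, 2 and 4 was left out (log2 fold changes from -1.29 to -1.11, adjusted p from 0.0529 to 0.0728). The 2 called higher were the Hedgehog target Gli1 (2.497 to 4.54 CPM, edgeR adjusted p = 0.023), which lost its call when any 1 of col1 replicates 3 and 4 and col1-ACLP+SB replicates 1 and 2 was left out (log2 fold changes from 0.76 to 0.87, adjusted p from 0.0536 to 0.0777), and Foxd1 at 0.77. Without replicate 2 of both groups, 5 were called lower and 2 higher.

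Factors of fat cell formation and fatty acid use were lower in their called members. Ebf1 and Pdk4 are likewise named by the paper as suppressed on col1-ACLP in this series, so the counts of this list are descriptions too. Of 26 adipogenic and fatty acid handling genes, 6 were called lower and none higher (median -0.28), and 7 were called lower without replicate 2 of both groups. Pparg (chr6:115337912-115467360), the master regulator of fat cell formation, was at 27.8, 28.6, 25.8 and 26.99 CPM on col1 and 13.99, 15.6, 17.9 and 17.8 CPM on col1-ACLP+SB. Ebf1, a factor that acts before it, was at 177, 197, 189 and 202 CPM on col1 and 120.5, 125, 119 and 123 CPM on col1-ACLP+SB. Pdk4, which spares glucose in favour of fatty acids, was at 32.1, 37.1, 28.1 and 43.6 CPM on col1 and 16.9, 10.7, 19.4 and 15.2 CPM on col1-ACLP+SB. The treated libraries were below the controls without overlap in all 3. The log2 fold changes were -0.74 ± 0.102, -0.65 ± 0.05 and -1.17 ± 0.15, with edgeR adjusted p-values of 2.11e-05, 9.36e-09 and 5.44e-06. Plin4, a lipid droplet coat protein, fell by 0.81 (adjusted p = 4.12e-10), and lies opposite Hdgfl2. Fabp4, the fat cell lipid carrier, was at 2.03, 0.804, 2.24 and 1.93 CPM on col1 and 0.344, 0.169, 0.545 and 0.7000 CPM on col1-ACLP+SB and lost its call when any 1 of col1 replicates 1, 3 and 4 and col1-ACLP+SB replicate 1 was left out (log2 fold changes from -1.93 to -1.84, adjusted p from 0.0585 to 0.0779). The adipocyte markers Adipoq, Retn, Plin1 and Cidec were under 1 CPM in every library.

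Inflammatory genes were lower in larger number than higher. Of 26 chemokines, cytokines and acute phase genes, 5 were called lower and 1 higher, 13 were lower and 2 higher on the adjusted p-value alone, and the median was -0.28. Cxcl5 and Cxcl1, which draw neutrophils, were at 215, 227, 225 and 212 CPM on col1 and 115, 91.9, 109 and 131 CPM on col1-ACLP+SB and at 254, 305, 257 and 278 CPM on col1 and 179, 159, 161 and 170.2 CPM on col1-ACLP+SB, respectively. Ccl2, which draws monocytes, was at 91.6, 94.4, 97.01 and 103 CPM on col1 and 52.4, 40.7, 53.5 and 66.9 CPM on col1-ACLP+SB. Every treated library lay below every control in these genes. Log2 fold changes were -0.98 ± 0.07, -0.71 ± 0.06 and -0.85 ± 0.097, with edgeR adjusted p-values of 3.08e-09, 1.37e-08 and 1.62e-06. Il33, an alarmin of stromal cells, was lower from 2.52 to 0.855 CPM (adjusted p = 0.0066, edgeR). Tnfrsf11b (osteoprotegerin), a decoy receptor that restrains osteoclasts, went the other way, at 30.5, 24.2, 23.2 and 29.2 CPM on col1 and 69.6, 54.9, 52.4 and 52.5 CPM on col1-ACLP+SB (log2 fold change 1.096 ± 0.102, edgeR adjusted p = 7.89e-08), with its replicate 1 above the other treated libraries.

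Calls among complement and interferon genes were all lower, where 0.981% of all tested genes were called lower. Of 12 complement genes 2 were called lower and none higher, namely C1s1, a protease of the first complex, at -0.66 ± 0.07 (edgeR adjusted p = 3.02e-07), and C4b at -0.65 ± 0.13 (adjusted p = 0.00176), which lost its call without col1-ACLP+SB replicate 4 (log2 fold change -0.52, adjusted p = 0.00733). C3, the central component, was at 2544, 2678, 2759 and 2869.6 CPM on col1 and 1766, 1801, 2050.1 and 1915 CPM on col1-ACLP+SB and lower at -0.53 ± 0.05 on the log2 scale (adjusted p = 2.57e-08), just inside the threshold. Of 36 interferon response and MHC class I genes, 29 had an estimate below 0 (median -0.32), 7 were lower on the adjusted p-value alone and 1 was called, the GTPase Gbp2, from 9.04 ± 0.766 to 4.51 ± 1.28 CPM (-0.995 ± 0.19, edgeR adjusted p = 0.00105). Irf1, a factor that drives such genes, was at -0.403 ± 0.08 (adjusted p = 0.00101).

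Feedback genes of the ERK kinase pathway gave 3 calls, all lower, among 18 tested, with a median of -0.36. Etv5 and Etv1 are transcription factors and Spry2 a brake on receptor signalling, all raised by ERK. Etv5 was at 53.1, 50.8, 61.1 and 62.2 CPM on col1 and 24.4, 25.96, 30.03 and 31.4 CPM on col1-ACLP+SB, a fall of 1.02 on the log2 scale (edgeR adjusted p = 4.44e-08), with no overlap. Spry2 was at 56.00, 66.8, 60.7 and 65.5 CPM on col1 and 32.6, 42.5, 48.9 and 38.2 CPM on col1-ACLP+SB (-0.62 ± 0.097, adjusted p = 0.00011), and lost its call without col1-ACLP+SB replicate 1 (log2 fold change -0.52, adjusted p = 0.000585). Etv1, at 3.94 to 1.92 CPM (-1.03 ± 0.26, edgeR adjusted p = 0.011), lost its call without col1 replicate 4 (log2 fold change -0.94, adjusted p = 0.0523). Among 22 immediate early genes, Egr3 was called lower at -0.65 ± 0.09 (adjusted p = 2.66e-05), 5 were lower and 1 higher on the adjusted p-value alone, and the median was -0.23. The one higher was Fosl2, at 0.26 ± 0.05 (adjusted p = 0.00136, edgeR).

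Growth factors were split. Fgf10, a mesenchymal signal to epithelia and a factor of early fat cells, was at 3.27, 3.88, 1.32 and 2.56 CPM on col1 and 0.115, 0.135, 0.934 and 0.7000 CPM on col1-ACLP+SB (edgeR adjusted p = 0.00339). Pdgfb was at 29.7, 31.9, 25.6 and 24.7 CPM on col1 and 42.5, 50.6, 44.98 and 45.5 CPM on col1-ACLP+SB, higher by 0.71 ± 0.09 (edgeR adjusted p = 6.67e-06). Fgf10 was lower and Pdgfb higher in every treated library against every control. Ptn (pleiotrophin), a heparin-binding growth factor, was among the genes of smallest p-value, falling from 3809.8 ± 139 to 2462 ± 141 CPM (-0.63 ± 0.04, edgeR adjusted p = 2.22e-10). Angpt1, an agonist of the vessel receptor TIE2, was at -0.57 ± 0.06 (adjusted p = 7.37e-07), just inside the threshold. Pgf was at 0.264, 0, 0.0307 and 0.0235 CPM on col1 and 0.659, 0.811, 1.304 and 0.867 CPM on col1-ACLP+SB (edgeR adjusted p = 0.0117), levels that give no reliable fold. Pgf lost its call when any 1 of col1 replicates 3 and 4 and col1-ACLP+SB replicate 3 was left out (log2 fold changes from 3.15 to 3.23, adjusted p from 0.0562 to 0.0658).

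Housekeeping groups and DNA methylation genes gave no calls, where 2.09% of all tested genes were called. At that share, lists this short may hold none. None of 39 oxidative phosphorylation subunits was called (median -0.02, 1 lower on the adjusted p-value), nor any of 56 ribosomal proteins (median -0.04), 32 ribosome biogenesis genes (median 0.09) or 6 DNA methyltransferase and TET genes. Of 32 NRF2 and glutathione genes, 5 were higher and 7 lower on the adjusted p-value alone, against 4.01% and 4.33% of all tested genes. The quinone reductase Nqo1 was the one called, higher at 0.62 ± 0.07 (edgeR adjusted p = 6.47e-07). Nqo1 lost its call without col1-ACLP+SB replicate 1 (log2 fold change 0.57, adjusted p = 7.62e-06). Gstm1 and Fth1 were lower at -0.53 ± 0.05 (edgeR adjusted p = 3.85e-08) and -0.403 ± 0.04 (adjusted p = 2.06e-07). Among 16 IGF genes none was called, and 3 were higher and 3 lower on the adjusted p-value alone. Ppia, often used to normalize RT-qPCR, was higher by 0.26 ± 0.06 (edgeR adjusted p = 0.00339), with 648, 746, 619 and 713 CPM on col1 and 878, 776, 762 and 858 CPM on col1-ACLP+SB. The gene of ACLP itself, Aebp1, was at 569, 576, 572 and 584 CPM on col1 and 676, 741, 763 and 676 CPM on col1-ACLP+SB, a log2 fold change of 0.31 ± 0.05 (edgeR adjusted p = 5.21e-05), and the added protein is not seen by an RNA count.

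Outside the lists, Sertad4 and Rflnb (refilin B, which bundles filamin) had among the smallest p-values of genes called higher. Sertad4, which lies opposite Gm15867, was at 80.4, 69.1, 77.1 and 84.2 CPM on col1 and 210.1, 236, 229.8 and 203 CPM on col1-ACLP+SB. Rflnb was at 34.8, 29.8, 31.2 and 31.02 CPM on col1 and 96.04, 90.02, 101 and 86.03 CPM on col1-ACLP+SB. Both were clear of overlap, at log2 fold changes of 1.499 ± 0.07 (edgeR adjusted p = 6.11e-13) and 1.56 ± 0.07 (adjusted p = 1.91e-12). Slc40a1 (ferroportin), the exporter of iron, was at 1.08, 0.402, 0.798 and 0.799 CPM on col1 and 4.13, 4.46, 4.32 and 4.73 CPM on col1-ACLP+SB (2.51 ± 0.32, adjusted p = 6.88e-06, edgeR). The other genes of largest change had few counts. On the higher side, Car6 was at 0.264, 0, 0.0614 and 0.235 CPM on col1 and 1.204, 0.642, 1.36 and 1.43 CPM on col1-ACLP+SB, Bcan at 1.45, 0, 0.153 and 0.305 CPM on col1 and 2.61, 1.55, 3.29 and 2.700 CPM on col1-ACLP+SB and Sema3d at 0.501, 0.107, 0.246 and 0.986 CPM on col1 and 1.46, 1.22, 2.12 and 2.13 CPM on col1-ACLP+SB. On the lower side, Igll1 was at 1.26, 1.74, 1.903 and 1.32 CPM on col1 and 0.258, 0.203, 0.3503 and 0.333 CPM on col1-ACLP+SB, Plac8 at 2.95, 1.55, 1.105 and 1.43 CPM on col1 and 0.115, 0.439, 0.603 and 0.567 CPM on col1-ACLP+SB and Gbp9 at 1.13, 2.17, 2.92 and 1.74 CPM on col1 and 0.516, 0.608, 0.954 and 0.6000 CPM on col1-ACLP+SB. Their groups did not overlap, but at these levels 1 library can decide a call, as it did for Bcan, Sema3d, Plac8, Gbp9 and Car6. Bcan lost its call when any 1 of col1 replicates 3 and 4 and col1-ACLP+SB replicates 1, 3 and 4 was left out (log2 fold changes from 2.12 to 2.39, adjusted p from 0.0624 to 0.0994), and also by DESeq2. Sema3d lost its call when any 1 of col1 replicates 1, 2 and 3 and col1-ACLP+SB replicates 1, 3 and 4 was left out (log2 fold changes from 1.57 to 1.97, adjusted p from 0.0625 to 0.122). Plac8 lost its call when either col1 replicate 1 or col1-ACLP+SB replicate 1 was left out (log2 fold changes from -1.702 to -1.65, adjusted p from 0.0544 to 0.141). Gbp9 lost its call when any 1 of col1 replicate 3 and col1-ACLP+SB replicates 1 and 4 was left out (log2 fold changes from -1.501 to -1.31, adjusted p from 0.0628 to 0.143), and also by limma-voom. Car6 lost its call when either col1 replicate 3 or col1-ACLP+SB replicate 4 was left out (log2 fold changes from 2.77 to 2.89, adjusted p from 0.0508 to 0.0569). Marchf10, Gda and Gm10800 were called lower although their libraries overlapped between the groups, at 1.48 to 0.109 CPM, 2.09 to 0.356 CPM and 4.74 to 1.52 CPM. Gm10800 lost its call when any 1 of col1 replicates 1 and 3 and col1-ACLP+SB replicates 1 and 2 was left out (log2 fold changes from -1.49 to -1.24, adjusted p from 0.0516 to 0.111), and also by DESeq2 and limma-voom. Gda lost its call by limma-voom and without replicate 2 of both groups, where its log2 fold change was -2.11 (edgeR adjusted p = 0.0544) against -2.54 with all 8 libraries.

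Most called genes were protein coding, with 159 of 176 among those higher and 146 of 156 among those lower, against 12500 of the 15899 tested. Long noncoding RNAs made up 7 and 9 and pseudogenes 8 and 1, against 1685 and 1123 of the 15899 tested. The lncRNA Gm830 was at 7.04, 10.02, 9.45 and 12.8 CPM on col1 and 2.87, 2.57, 5.61 and 4.300 CPM on col1-ACLP+SB (-1.34 ± 0.23, edgeR adjusted p = 0.000268). Gm16093, which lies opposite Pde7a, was at 1.05, 1.02, 0.737 and 0.399 CPM on col1 and 2.75, 2.33, 1.69 and 2.57 CPM on col1-ACLP+SB, and lost its call when any 1 of col1 replicate 4 and col1-ACLP+SB replicates 1 and 4 was left out (log2 fold changes from 1.31 to 1.49, adjusted p from 0.0506 to 0.0677). Of the remaining noncoding genes of largest change, Gm36899, Gm44837, Gm45257 and ENSMUSG00000121191 each lost their call under at least 8 of the 19 alternative settings, with a test against the fold threshold itself left uncounted.

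The group with ACLP and no inhibitor gives each gene's level with ACLP alone. A separate edgeR fit of all 12 libraries tested col1-ACLP+SB against col1-ACLP, where 1.48% of 16465 genes passed an adjusted p of 0.05. This test shares its treated libraries with the comparison against col1, so both are given side by side. Lox was at 711 ± 22.7 CPM on col1, 2093 ± 168 CPM on col1-ACLP and 1532 ± 61.6 CPM on col1-ACLP+SB. Col8a1 was at 5.98 ± 1.09 CPM on col1, 56.2 ± 4.54 CPM on col1-ACLP and 35.7 ± 2.701 CPM on col1-ACLP+SB. Pmepa1 was at 25.7 ± 2.42 CPM on col1, 92.9 ± 10.2 CPM on col1-ACLP and 70.9 ± 6.19 CPM on col1-ACLP+SB. In these genes the level with the inhibitor lay between the other groups, and was lower than on col1-ACLP, at -0.46 ± 0.05 for Lox (edgeR adjusted p = 5.49e-06), -0.66 ± 0.096 for Col8a1 (adjusted p = 0.000382) and -0.401 ± 0.08 for Pmepa1 (adjusted p = 0.00841) on the log2 scale. Sned1 and Col18a1 were intermediate from the other side, at 1133 ± 48.4 CPM on col1, 237 ± 25.7 CPM on col1-ACLP and 384 ± 11.5 CPM on col1-ACLP+SB for Sned1 and 171 ± 19.8 CPM on col1, 69.96 ± 2.28 CPM on col1-ACLP and 99.5 ± 7.46 CPM on col1-ACLP+SB for Col18a1. They were higher with the inhibitor than on col1-ACLP by 0.68 ± 0.06 (edgeR adjusted p = 2.37e-07) and 0.497 ± 0.07 (adjusted p = 0.00029).

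Asns was at 63.5 ± 3.46 CPM on col1, 158 ± 11.2 CPM on col1-ACLP and 122 ± 4.17 CPM on col1-ACLP+SB, with a difference from col1-ACLP of -0.38 ± 0.06 on the log2 scale (edgeR adjusted p = 0.000496). Of the glycolytic genes, Ldha was at 292 ± 14.1 CPM on col1, 493 ± 25.9 CPM on col1-ACLP and 496 ± 10.9 CPM on col1-ACLP+SB, and Pgk1 at 224 ± 5.87 CPM on col1, 411 ± 27.9 CPM on col1-ACLP and 396 ± 17.6 CPM on col1-ACLP+SB. Their log2 differences from col1-ACLP were -0.004 ± 0.05 (edgeR adjusted p = 0.992) and -0.06 ± 0.05 (adjusted p = 0.674), and that of Pfkl was 0.03 ± 0.06 (adjusted p = 0.918), none of them detectable with 4 libraries a group. That of Gapdh was 0.35 ± 0.12 (adjusted p = 0.168). For Acta2 and Col1a1 the differences were -0.25 ± 0.06 (adjusted p = 0.0226) and -0.19 ± 0.06 (adjusted p = 0.129), and for Dcn and Gfra1 0.295 ± 0.09 (adjusted p = 0.101) and 0.36 ± 0.12 (adjusted p = 0.142). Among called genes, 1 differed from col1-ACLP further in the direction of its change from col1, the pseudogene Gm9824. Its levels were 19.1 ± 3.35 CPM on col1, 17.99 ± 7.79 CPM on col1-ACLP and 8.86 ± 1.24 CPM on col1-ACLP+SB, and its log2 differences were -1.11 ± 0.14 from col1 and -1.03 ± 0.21 from col1-ACLP (edgeR adjusted p = 7.08e-06 and 0.0099).

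**Figure D5:**
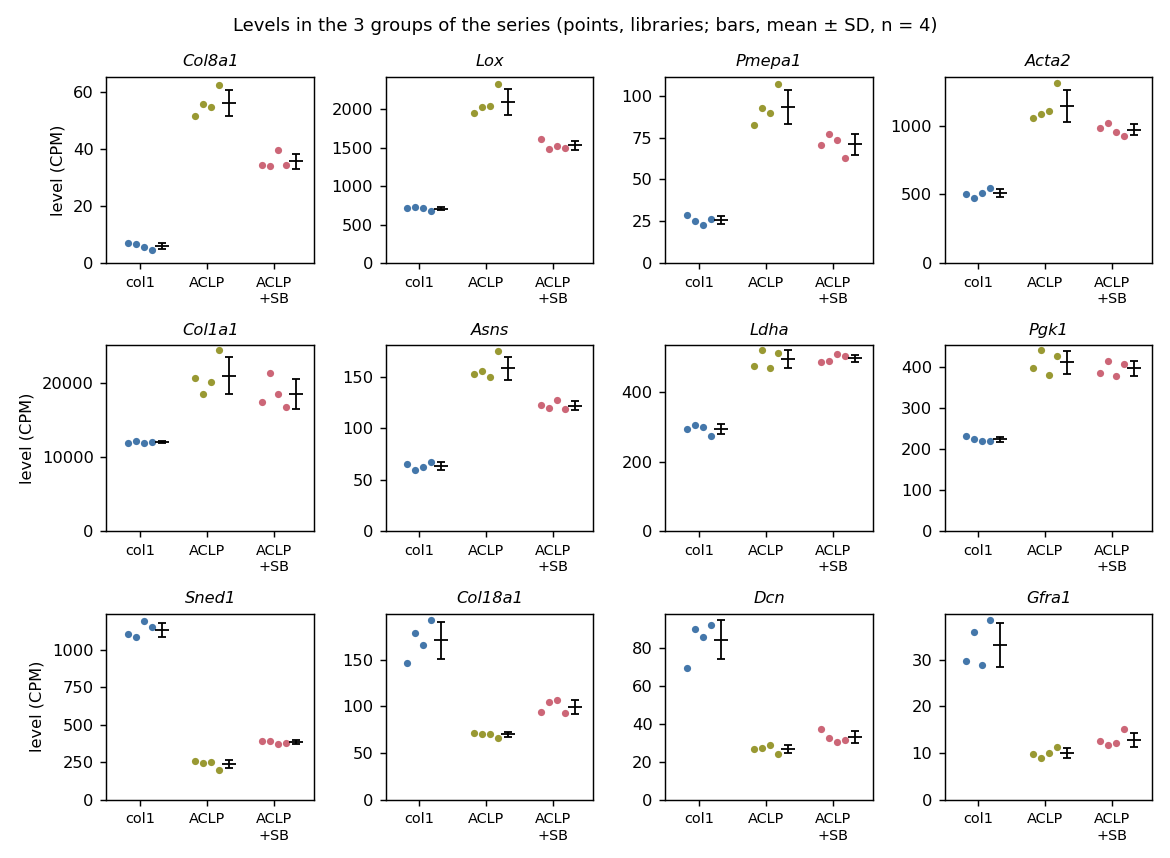
Level of 12 genes (vertical axes, CPM with TMM scaling, from 0) in the 3 groups of the series, with 1 point a library and bars for the mean ± SD of 4. Lox, Col8a1 and Pmepa1 lie lower with the inhibitor than with ACLP alone and above col1, whereas Ldha and Pgk1 lie at like levels in both ACLP groups.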

How the data were processed

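RNA of 12 libraries was sequenced, and the 8 libraries of col1 and col1-ACLP+SB were compared. The authors deposited raw read counts per gene, without normalization, and all columns of counts were mapped to samples by their labels. The submitters' processing notes name HISAT2 and mm10, but the table's coordinates follow GRCm39, since 99.857% of 56017 identifiers lie on the same chromosome and within 100000 bases of their start in GENCODE M39. The counting tool, its strand setting and its treatment of multi-mapped reads are not given in the sources used here. Replicates of a group differed beyond sampling noise (chi-square per degree of freedom of 7.58 to 18.3), so all 8 were kept as separate samples.

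The test was edgeR's quasi-likelihood fit (version 4.0.16, R 4.3.3) of the counts that filterByExpr kept, with TMM factors from 0.985 to 1.01 and a mean for each group, and Benjamini-Hochberg adjustment over 15899 genes. The common dispersion had a square root of 0.169. The thresholds of 0.05 and 0.58 follow the study's methods, which used DESeq2. In a simulation of this comparison with 15474 genes tested, 64 of 97 genes changed by 1 log2 unit and 84 of 96 changed by 2 were recovered and 3 unchanged genes were called, with a median level of 0.962 CPM in missed genes. Precision from depth covers counting error only, since reads carry no molecular identifiers. The labels do not say whether libraries of the same number were paired. Deviations of same-numbered libraries correlated at 0.0033 to 0.039 over all tested genes, which does not exclude pairing, and the main test fitted none.

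The comparison and the gene lists were chosen with earlier results of these data known, so list counts are descriptions. Named genes were the 12 largest changes in each direction with a mean of at least 1 CPM in a group, the 5 smallest p-values in each direction, up to 5 called members of each list (or the smallest p-values up to 3), the genes the study names here, called genes that differed further from col1-ACLP, and the 3 largest changes in each direction among genes that are not protein coding. Some further genes were named after their values were seen. The symbols Ena and Hic5 of the focal adhesion list had no match. Alternatives covered scaling, the filter on low counts, all 12 libraries, DESeq2 1.42.0, limma 3.58.1 voom, the thresholds, a replicate block and each library left out. Promoters were taken by symbol from a RefSeq table on GRCm38.p6, with 10618 of 15889 tested symbols matched. Results for some genes that the rule or the study names are not reported here.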

Additional observations from a re-analysis of the deposited data

Results flagged for a closer look

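In 19 of 358 groups of 4 values checked, 1 library lay apart from the other 3, with a gap over range above Dixon's critical value for 4 samples, and chance gives such a gap in about 5% of groups, so the single genes below are given as values only. Principal component scores set apart col1 replicate 2 on the first component (ratio 0.962) and on the second (0.868), and col1-ACLP+SB replicate 2 on the second (0.854). On col1, replicate 2 was above its group in Hey1 (0.849) and Idi1 (0.909) and below it in Igf1r (0.891). Replicate 1 of col1 was above in Pgf (0.884) and below in Atp5b (0.869) and Efemp1 (0.842), and replicate 4 was above in Hsp90b1 (0.886). On col1-ACLP+SB, replicate 3 was above its group in Col8a1 (0.914), Thbs1 (0.866), P4hb (0.919) and Pdgfrb (0.845). Replicate 1 was above in Tnfrsf11b (0.855) and below in Irf1 (0.898), replicate 2 was below in Cdc45 (0.916) and above in Bmp1 (0.867), and replicate 4 was below in Aurkb (0.918).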

How the results depend on the processing

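Both counts of called genes kept within 1.5 times of 176 genes higher and 156 genes lower under every change of scaling, filter, tool or fit. With library size alone they were 166 and 179, with RLE factors 181 and 155, without a filter 197 and 183, with all 12 libraries fitted 209 and 167, with DESeq2 191 and 182 and with limma-voom 181 and 161. They moved with the threshold, to 637 genes higher and 689 genes lower on the adjusted p-value alone and to 47 and 27 when edgeR's glmTreat tested against the fold threshold itself. Leaving out 1 library gave 155 to 185 genes higher and 138 to 166 genes lower. A replicate block gave 164 and 145. Pairing by number is not stated in the labels, so this block is a check only. Leaving out replicate 2 of both groups, chosen after the data were seen, gave 179 and 163. Of 115 called genes named by the rule, 81 kept their call under each of the alternatives other than glmTreat that gave an adjusted p-value (DESeq2 gave none for 10 of the named genes), and none of the 176 named genes reversed. Of 1634 counts of list members under alternatives, 187 moved by more than 1.5 times. Of the genes named, Tnnt2, Sgo1, Itga4, Plac8, Gm45257, Gm44837, Gm36899 and ENSMUSG00000121191 lost their call with the replicate block, Col7a1 and Gm44837 with library size alone, and Tnnt2, Sgo1 and ENSMUSG00000121191 without a filter. List medians near 0 had no stable sign, as leaving out replicate 2 of col1 moved that of the contractile genes from 0.01 to -0.02 and that of oxidative phosphorylation from -0.02 to 0.04, and leaving out replicate 2 of col1-ACLP+SB moved that of the BMP genes from -0.03 to 0.01. In the simulation, the changed genes that were missed had a median of 0.962 CPM, so a missing call at such levels does not show that a gene did not change.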
